A study of Mus musculus with 22 samples.

Results

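The 2 loci n-R5s210 (XLOC_000264) and n-R5s211 (XLOC_000362) are annotated copies of the 5S ribosomal RNA gene, and they are 2 of the 66494 loci that were quantified in Purkinje cells (PCs) with and without Tsc1. They were chosen by their measured values in one comparison, in which TRAP libraries of untreated mutants had lower values than those of untreated controls, so that comparison is described here without a test. The other TRAP libraries, made from mice given rapamycin, and the libraries of sorted PCs took no part in that choice.

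Mutants were Tsc1 fl/fl and controls Tsc1 +/+, labelled with a C57BL/6 background, and Cre was driven by the L7 (Pcp2) promoter, which is active in PCs. The TRAP mice of both genotypes carried Cre, while the study's methods and its sorting example differ on whether the sorted controls did. Sorted PCs carried L7GFP and came from the cerebellum at P21 or P42, with the age of single libraries not given in the sources used here. They gave 5 mutant libraries (61, 74, 103, 167 and 191) and 5 control libraries (45, 48, 144a, 144b and 176), of which 144a and 144b share an animal number. Submission MS2723 held only mutants (61, 74 and 103) and MS2872 only controls (45, 48 and 144b). Both genotypes were present only in MS3005, so genotype and submission were largely confounded in sorted PCs. For translating ribosome affinity purification (TRAP), mice carried the Rosa26fsTRAP allele, a Cre-dependent ribosomal protein RPL10A fused to EGFP, so that ribosomes of PCs could be pulled down with their bound RNA. TRAP gave 3 libraries for each of 4 groups, namely controls, mutants, controls with rapamycin and mutants with rapamycin. Neither the age of the TRAP mice nor the dose and schedule of rapamycin was given in the sources used here.

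The 5S rRNA is the smallest RNA of the large ribosomal subunit. It is transcribed by RNA polymerase III from a promoter inside the gene, which the factor TFIIIA binds, and it forms a particle with the ribosomal proteins RPL5 and RPL11 before it enters the ribosome. Mammalian genomes hold tandem arrays of identical 5S genes and many scattered, diverged copies, most of them regarded as pseudogenes. TSC1 restrains the kinase complex mTORC1, which rapamycin inhibits and which is known to promote RNA polymerase III transcription through its repressor MAF1.

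Both loci were scattered copies on chromosome 1. In GRCm38, n-R5s210 lies at chr1:37005439-37005557 and n-R5s211 at chr1:46374197-46374315, both on the plus strand, each as 1 exon of 119 bases. No other annotated gene overlaps either. The nearest annotated genes of n-R5s210 are the processed pseudogene Rpl12-ps1, 47011 bases before it on the minus strand, and Vwa3b, which starts 21038 bases after it. The end of Dnah7b, an axonemal dynein gene on the same strand, is only 650 bases before n-R5s211. The annotation calls both an rRNA gene, whereas the RefSeq gene table calls n-R5s210 a pseudogene and n-R5s211 an rRNA. Reads were 75 bases long, and none of the 45 windows of that length in either locus occurred in another annotated transcript among 141767 searched on both strands. Fragments that match the annotation exactly could therefore be told apart from those of other annotated transcripts. A genome-wide search was not made, and the effect of mismatches allowed in mapping was not tested.

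The deposited values are estimated fragment counts divided by 1 size factor per library, and the fragments themselves could be recovered because the values of both loci were whole multiples, within 0.01, of the lowest step of each library. Libraries held 43.3 to 86.3 M fragments for sorted PCs and 2.47 to 6.38 M for TRAP. In TRAP, n-R5s210 had 44 to 783 fragments and n-R5s211 had 97 to 1445 fragments per library. Of the 16 PC markers, all were measured, and their summed value ranged from 10243 to 15556 across the TRAP libraries. Of 6 astroglial markers, 4 were measured (Gfap, Apoe, Aldoc and Tnc), and markers of granule cells and oligodendrocytes were not analysed here. Tsc1 was not analysed here, so that the genotype labels were not checked on it. One library stood apart: in mutant library 3 the deposited values summed to 860843, against 5261120 and 5142310 in the other mutants, and its step was 0.303, against 1.96 and 1.51.

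Without rapamycin, both loci had lower deposited values in every mutant library than in every control library. For n-R5s210, the values were 586, 363 and 413 in controls 1, 2 and 3 and 196, 66.3 and 113 in mutants 1, 2 and 3. For n-R5s211, they were 1218, 722 and 775 in controls and 267, 146 and 175 in mutants. The groups did not overlap at either locus, and the highest mutant value of n-R5s211 was 267 against a lowest control value of 722. On the log2(value + 1) scale, the mean was 8.80 ± 0.36 (SD, n = 3) in controls and 6.84 ± 0.78 in mutants for n-R5s210, a difference of −1.96. For n-R5s211 it was 9.78 ± 0.41 and 7.57 ± 0.44, a difference of −2.21. Both passed the call rule of the study, which asks for a limma p below 0.01 before adjustment together with a fold above 2, and the choice of the loci had fixed that result. In this comparison 98 of 9658 loci (1.01%) passed them as lower in mutants, and 658 (6.81%) had every mutant library below every control library. With values scaled to equal library totals, 4 passed as lower and 74 as higher, against 98 and 91.

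The separation of the untreated groups depended on the scaling of mutant library 3. Expressed as FPM, the fragments per M fragments of the library, n-R5s210 was at 141, 101 and 116 in controls and at 37.3, 12.9 and 131 in mutants. The same measure for n-R5s211 was 292, 201 and 218 in controls and 50.7, 28.4 and 203 in mutants. Mutants 1 and 2 lay below all controls at both loci, whereas mutant 3 lay within the range of the controls. FPM also depends on the highest loci of a library. The 10 highest took 40.5% of all values in mutant 3, against 70.8% and 68.1% in mutants 1 and 2. In controls they took 62.2% to 62.7%, and the effect of this on FPM was not tested. With values scaled to equal library totals, the log2 differences were −1.56 and −1.81, while the median of all loci tested moved from 0.07 to 0.47. With mutant 3 also left out, an alternative chosen after seeing the data, they were −2.42 and −2.62. Rank within a library does not depend on its scaling, and by this measure n-R5s210 was the 95th to 141st highest locus in controls and the 307th to 1342nd in mutants. The ranks of n-R5s211 were 54 to 82 in controls and 196 to 442 in mutants, so that the groups did not overlap in rank at either locus. These are the libraries on which the loci were chosen, so the separation in rank is no independent evidence of a difference. The share of all loci separated in this way was not computed. Rank also depends on the other loci of a library, and 20951 were above 0 in mutant 3 against 12471 to 15581 in controls.

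**Figure D1:**
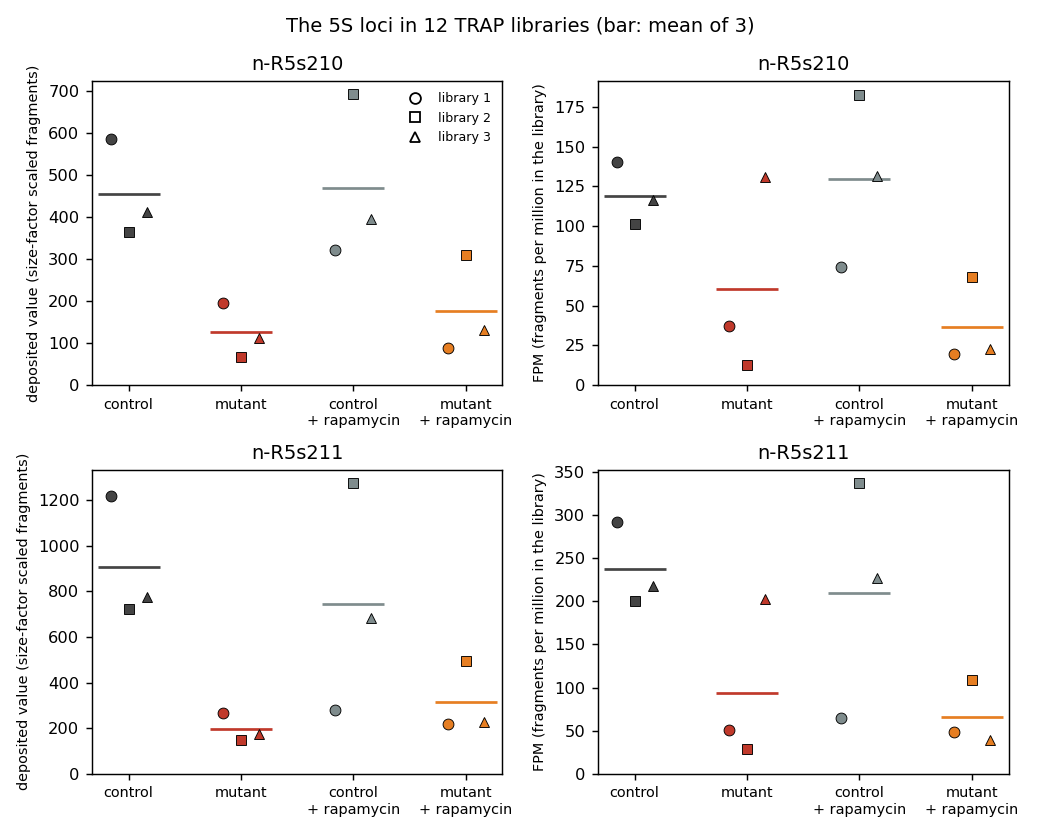
Values of n-R5s210 (top) and n-R5s211 (bottom) in the 12 TRAP libraries, as deposited (left, estimated fragments divided by the size factor) and as FPM, fragments per M fragments of the library (right), with 1 symbol per library and a bar at the mean of 3. Untreated mutants sit below untreated controls on the left, while mutant library 3 reaches the controls on the right, at 131 and 203 FPM.

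The question whether the genotypes also differed under rapamycin was addressed in libraries that had no part in the choice of the loci. For n-R5s210, the deposited values were 322, 692 and 396 in controls 1, 2 and 3 and 88.6, 309 and 131 in mutants 1, 2 and 3. Every mutant library was below every control library, with 309 in the highest mutant next to 322 in the lowest control. In FPM they were 74.4, 183 and 132 in controls and 19.8, 68.0 and 22.4 in mutants, and again did not overlap. With all loci scaled as deposited, 384 of 8728 loci (4.40%) had every mutant library below every control library in this comparison.

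The difference of n-R5s210 under rapamycin was −1.53 on the log2(value + 1) scale (SE 0.69, 95% interval −3.17 to 0.11), from a mean of 8.80 ± 0.57 (SD, n = 3) in controls to 7.27 ± 0.91 in mutants. It did not pass the call rule, with an unadjusted limma p of 0.0627 and a Benjamini-Hochberg adjusted p of 0.869. An exact two-sided permutation test gave p = 0.1, which is the smallest that 3 against 3 libraries allow. The call differed between ways of fitting the same libraries. With an intensity trend in eBayes the unadjusted limma p was 0.00473 (adjusted p 0.854), and with limma-voom on the recovered fragments the difference was −1.71 with an unadjusted p of 0.00230 (adjusted p 0.628). Both passed the call rule, and the adjusted limma p over all settings ranged from 0.343 to 0.992.

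For n-R5s211, the deposited values under rapamycin were 279, 1277 and 684 in controls and 217, 496 and 227 in mutants. Control library 1, at 279, lay below mutant library 2, at 496, so that the groups overlapped. In FPM the order was the same, with 64.4, 337 and 227 in controls and 48.5, 109 and 38.9 in mutants. The log2 difference was −1.10 (SE 0.76, 95% interval −2.91 to 0.71), from 9.29 ± 1.10 (SD, n = 3) to 8.19 ± 0.67. Its unadjusted limma p was 0.190, its adjusted p 0.873, and the exact two-sided permutation p 0.2. These intervals include 0 and also the untreated differences of −1.96 and −2.21, so that neither the loss nor the persistence of a difference under rapamycin was shown at this number of libraries.

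All 8728 loci tested under rapamycin had a median log2 difference of 0.32, and 37.0% of them were below 0. With a stricter filter on low values the median was 0.09 and 44.0% were below 0. Only 23 of the 8728 loci (0.264%) passed the call rule as lower in mutants and 84 as higher. With equal library totals these were 45 and 52 and the median of all loci was −0.07, and with quantile normalization they were 51 and 80. The differences of the 2 loci were −1.95 and −1.52 with equal totals and −1.39 and −0.86 with quantile normalization, and did not change sign.

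**Figure D2:**
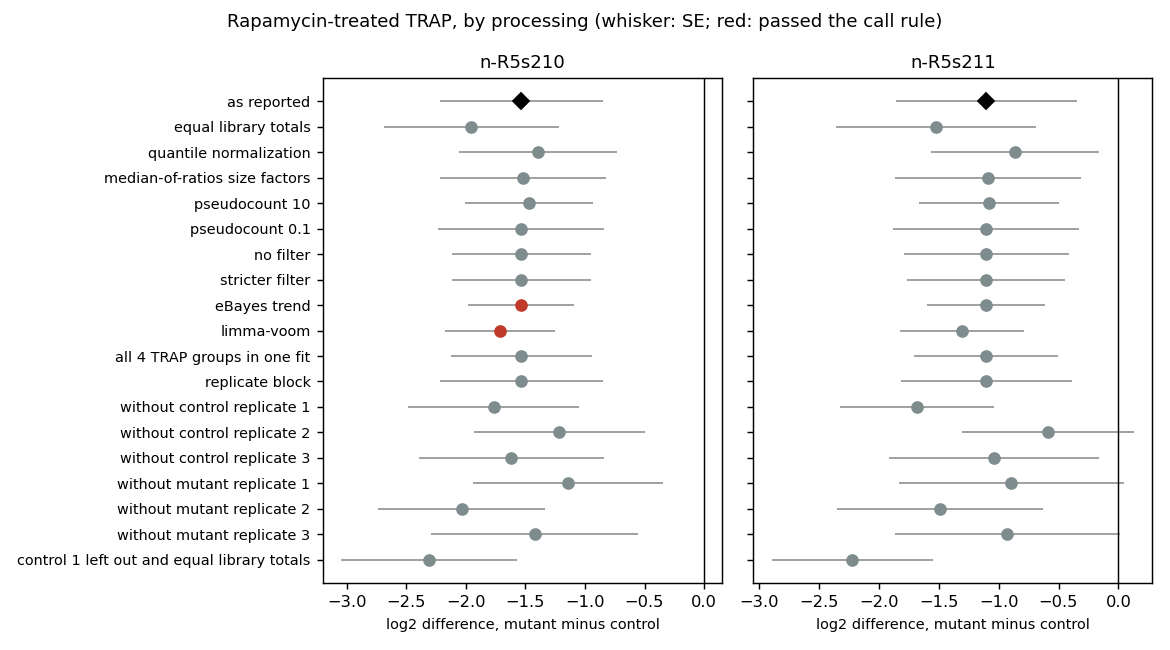
Log2 difference between mutant and control TRAP libraries with rapamycin for n-R5s210 (left) and n-R5s211 (right), as reported (black diamond) and under each other way of processing, with the SE as whiskers and settings that passed the call rule in red. All differences lie below 0, between −2.31 and −1.14 for n-R5s210 and between −2.22 and −0.59 for n-R5s211.

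Control library 1 with rapamycin stood apart from the other controls at these loci. It was the only TRAP library in which n-R5s210 had a higher value than n-R5s211, with a ratio of 1.15, against 0.41 to 0.74 in the other 11. The ratio in controls without rapamycin was 0.48 to 0.53. In the library that stood apart n-R5s210 was at 59.1% and n-R5s211 at 28.4% of the mean of controls 2 and 3. Over the 26 n-R5s loci that the supplementary files name, its profile of log2 values had a Pearson correlation of 0.80 with the mean of the other 11 libraries, while each of those had a correlation of 0.96 to 0.99. Of the 26 loci, 21 were below both other controls there, 4 above both and 1 between them. Loci of 119 bases were at a median of 38.6% of the mean of controls 2 and 3, and those of other lengths at 11.0%. Its 10 highest loci took 72.6% of all values, the most of any library, and it had the fewest loci above 0 at 8449. The log2 difference of n-R5s211 between genotypes under rapamycin was −1.68 without this library and −0.59 without control 2, and that of n-R5s210 was −1.77 and −1.22. With this library left out and equal library totals, which was chosen after seeing the data, the differences were −2.31 and −2.22.

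**Figure D3:**
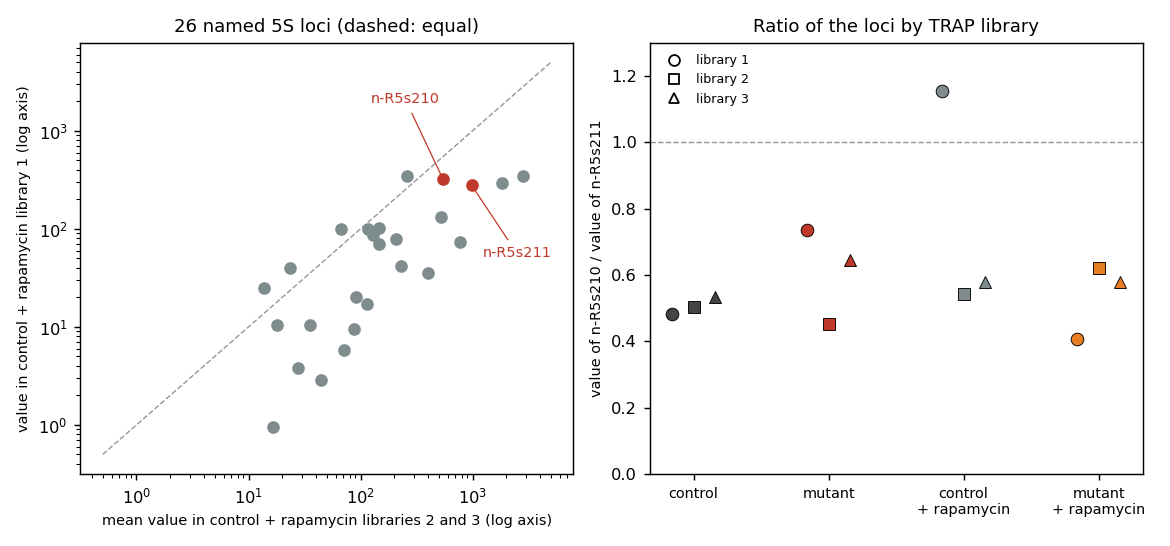
Left, values of the 26 named 5S loci in control library 1 with rapamycin against the mean of controls 2 and 3 with rapamycin, both on log axes, with the 2 loci in red and a dashed line of equality. Right, the value of n-R5s210 divided by that of n-R5s211 in each TRAP library, which was 1.15 in that library and 0.41 to 0.74 in the other 11.

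Rapamycin itself was compared within each genotype as a description only, since these comparisons share the untreated libraries on which the loci were chosen. In controls, n-R5s210 had a mean value of 454 ± 117 (SD, n = 3) without and 470 ± 196 with rapamycin, a log2 difference of 0.00. In the same libraries n-R5s211 was at 905 ± 272 and 747 ± 502, a log2 difference of −0.49. In mutants, n-R5s210 was at 125 ± 65.8 without and 176 ± 117 with rapamycin, a log2 difference of 0.43, and n-R5s211 at 196 ± 63.1 and 313 ± 158, a log2 difference of 0.61. Libraries with and without rapamycin overlapped in all 4 cases. On this deposited scale the order of the mean log2 values was the same at both loci from the lowest, mutants, through mutants with rapamycin, up to the 2 control groups. Neighbours in that order overlapped at n-R5s211, and at n-R5s210 they overlapped except for mutants with rapamycin (highest value 309) and untreated controls (lowest value 363). In FPM the 2 mutant groups changed places, with means of 60.4 without and 36.7 with rapamycin for n-R5s210 and of 94.1 and 65.5 for n-R5s211. Mutant library 3 raised the untreated means, at 131 FPM against 37.3 and 12.9 in mutants 1 and 2 for n-R5s210. For n-R5s211 that library was at 203 FPM, against 50.7 and 28.4.

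Each locus was also set beside the 24 other n-R5s loci that the supplementary files name, of which all but 1 are listed there among loci changed in the untreated TRAP comparison. They were therefore selected on the same libraries and are no independent evidence of its direction. In untreated TRAP controls n-R5s211 had the 3rd and n-R5s210 the 6th highest mean log2 value of the 26. Among the 17 loci of 119 bases, to which a comparison of levels was limited, n-R5s211 was the highest at 9.78, followed by n-R5s151 at 8.82 and n-R5s210 at 8.80, a gap smaller than the SD of 0.36 of n-R5s210. The 26 lay on 17 chromosomes. Untreated, all 24 had every mutant below every control library, as the selection had favoured and against 6.81% of all loci, with a median log2 difference of −2.14 from −2.75 (n-R5s41) to −1.20 (n-R5s58, the locus outside that list). Of the 24, 23 passed the call rule as deposited and 0 with equal library totals, and the FPM of the 26 loci summed to 2152 in mutant 3, within the 1738 to 2540 of the controls. Under rapamycin, all 24 differences were below 0, with a median of −1.17, and both loci lay within their range, from −2.17 at n-R5s25 to −0.44 at n-R5s96. Without control 2 the median was −0.63 with 22 of the 24 below 0, and without mutant 3 it was −0.96 with 23 below 0. None of the 24 passed the call rule under rapamycin in limma, 6 had an unadjusted p under 0.05 (480 of all 8728 loci) and 0 an adjusted p under 0.05. In 6 of the 24 every mutant library with rapamycin was below every control library with rapamycin, against 384 of all 8728 loci (4.40%).

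**Figure D4:**
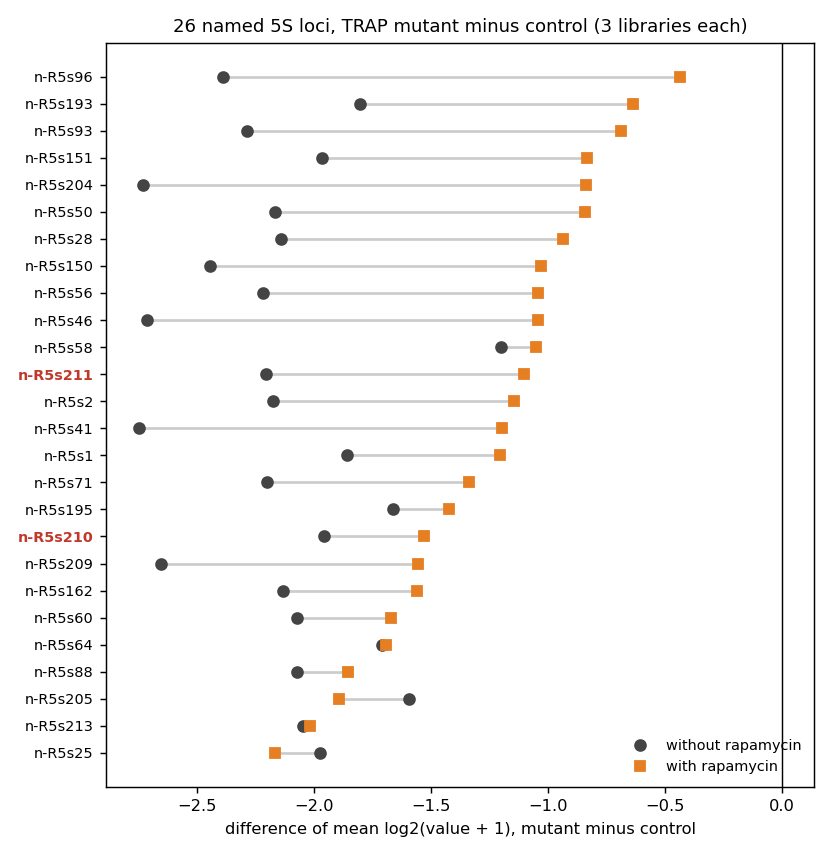
Difference of the mean log2(value + 1) between mutant and control TRAP libraries (3 each) for the 26 named 5S loci, without rapamycin (circles, the comparison on which the loci were chosen) and with rapamycin (squares). With rapamycin all 26 squares lie below 0, from −2.17 to −0.44, with n-R5s210 at −1.53 and n-R5s211 at −1.10 (red names).

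Across the 12 TRAP libraries, the loci most like the 2 in pattern were other 5S loci. Among 938 named loci, those with the highest Pearson correlation to the mean log2 value of the 2 loci were n-R5s71 (0.992), n-R5s209 (0.969), n-R5s60 (0.964), n-R5s151 (0.963) and n-R5s162 (0.962). The correlation of the 2 loci with each other was 0.938, and that of the 24 other 5S loci ranged from 0.676 to 0.992 with a median of 0.922. These correlations describe 12 libraries that share the genotype difference used for the choice and the scaling of each library. In sorted PCs no such pattern could be computed, since both loci were at 0.

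In sorted PCs the 2 loci were at or next to the detection limit. n-R5s210 had 0 fragments in all 10 libraries, and n-R5s211 had 1 fragment in control 144b, a value of 0.93, and 0 fragments in the other 9. A count of 0 allows up to 3 fragments, or 0.0348 to 0.0693 FPM in these libraries, a bound that covers counting error only. The lowest TRAP library held 12.9 FPM of n-R5s210, which was at least 186-fold higher than the highest of these limits per sorted library. Of the 240 values of the other 24 named 5S loci in sorted PCs, 4 were above 0, each of 1 fragment. A genotype difference at either locus was thus not detectable in sorted PCs, where both were below the filter on low values and were not tested. For comparison, 177 of 16455 loci (1.08%) passed the call rule there as lower in mutants and 65 as higher, and 153 and 91 did so with equal library totals. With 144a and 144b averaged 104 were lower and 64 higher, and with submission as a term 19 and 14. The summed value of the 16 PC markers in sorted mutants 103, 61 and 74, all of MS2723, was 64839, 93437 and 154961. It was 460774 and 439368 in mutants 167 and 191, and 441251 to 857274 in controls. The 4 measured astroglial markers summed to 449319 to 589636 in mutants and 305043 to 622875 in controls. The part of this mix of cells in the sorted differences of any gene was not tested. Sorted cells and TRAP differed in the mice, in how RNA was isolated, in library preparation and in the material sequenced. Sorted RNA was prepared with a SmartSeq kit, while TRAP libraries were made at a core facility. The study itself names library preparation as a technical confounder between total and TRAP RNA. The 2 tables were also scaled separately, so that the effects of these differences cannot be told apart.

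The partners of 5S rRNA and the machinery that transcribes it could be followed only in part. Of 9 listed proteins that bind or place 5S rRNA, the supplementary files paired 1 with a locus, Rpl5, and of 30 subunits and factors of RNA polymerase III they paired 2, Polr3a, which encodes the largest subunit, and Polr3k, a small subunit. The Rpl5 locus overlaps the gene without matching its annotated structure and the Polr3k locus lies on its opposite strand, so both are uncertain. In sorted PCs, Rpl5 had values of 2526 to 3228 in mutants and 2456 to 3292 in controls, a log2 difference of 0.01 (95% interval −0.30 to 0.32). Polr3a had values of 985 to 1340 in mutants and 814 to 1669 in controls, a difference of 0.18 (−0.30 to 0.65), and Polr3k differed by −1.45 (−3.97 to 1.07). The Polr3k difference rested on mutant 74, at 0.0138, and was −0.28 without it, and it was 0.55 with submission as a term. The levels of both genotypes overlapped for all 3. Ribosomal protein genes were represented by Rplp0, Rpl37 and Rps16, with log2 differences of −0.79, −0.43 and −0.38 in sorted PCs. With submission as a term these were −0.17, −0.30 and −0.002. None of the 6 genes passed the call rule there, and Rplp0 had the lowest p (unadjusted limma p 0.0188, adjusted p 0.399).

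In TRAP under rapamycin none of these 6 genes passed the call rule either. Rpl5 had values of 81.4 to 532 in controls and 88.6 to 287 in mutants, a log2 difference of −0.90 (95% interval −3.09 to 1.28). Its groups overlapped. The differences of Polr3a, Polr3k, Rplp0, Rpl37 and Rps16 were −0.48, 1.47, 0.22, 0.37 and −0.92, each with an interval that includes 0. With equal library totals Rplp0 and Rpl37 turned to −0.18 and −0.04, and with quantile normalization Polr3k turned to −0.06. In the untreated TRAP libraries, which had chosen the loci, 5 of the 6 genes were tested and none passed the call rule. Rpl5 was at 166 to 231 in controls and 64.8 to 131 in mutants, a log2 difference of −1.13. Polr3a was at 18.4 to 25.1 and 9.81 to 11.2, a difference of −0.98. Neither gene overlapped between the groups, and 6.81% of all loci had every mutant library below every control library. With equal library totals the differences of Rpl5 and Polr3a were −0.73 and −0.58. Rplp0, Rpl37 and Rps16 differed by 0.46, 0.51 and 0.53 as deposited, and by 0.86, 0.91 and 0.92 with equal library totals.

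A list of 12 other small RNAs was set beside the 5S loci. It holds the spliceosomal RNAs Rnu11 and Rnu12, the Y RNA Rny3, the nucleolar RNAs Rnu3a, Snora2b, Snora30, Snord13, Snord17 and Snord32a, the Cajal body RNA Scarna3b, and AF357399 and Mir3068. They had up to 5980 in a TRAP library and at most 41.4 in a sorted library. Under rapamycin, 11 of the 12 had a log2 difference below 0, with a median of −1.14, and none passed the call rule. Without control 2 or control 3 it was 7 of the 12, with medians of −0.47 and −0.43, and without control 1 it was 12 of 12 with a median of −2.28. The exception was Snord13 at 0.76, and Rnu3a was the only one with an unadjusted limma p under 0.05 (a log2 difference of −1.61, an unadjusted limma p of 0.0218 and an adjusted p of 0.846). In control library 1 with rapamycin the 12 summed to 977, against 10216 and 8513 in controls 2 and 3, so that the library that stood apart for the 5S loci did so for these too.

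The summed deposited value of the 4 measured astroglial markers was higher in mutant TRAP libraries, but its members did not move together. The sum was 1475 to 2086 in controls, 2714 to 3378 in mutants, 943 to 1405 in controls with rapamycin and 1599 to 2178 in mutants with rapamycin. Neither pair of groups overlapped on the deposited scale, but the sums were not scaled to library totals. Mutant library 3 had the highest sum, 3378, and the lowest library total, 860843. Aldoc, which PCs also express, made up most of each sum, and Tnc was at 0 in all 3 controls with rapamycin. Untreated, the log2 differences of Gfap, Apoe and Aldoc were 2.71, 1.92 and 0.64, and that of Tnc was −2.27. Gfap, Apoe and Tnc passed the call rule there and Aldoc did not, while 189 of all 9658 loci passed it. Under rapamycin the log2 differences of Gfap, Apoe and Aldoc were 0.41, −0.10 and 0.76, none of them called. The part of these markers in the values of n-R5s210 and n-R5s211 was not tested. The summed value of the 16 PC markers was 13013 to 15556 in controls and 11706 to 13070 in mutants, and with rapamycin 10243 to 11614 in controls and 11827 to 13291 in mutants. Under rapamycin every mutant library had a higher PC marker sum than every control library on the deposited scale. The total of all deposited values was also higher in those mutants, at 4473480 to 5839620 against 3009390 to 4326440 in controls. The PC marker sums were not scaled to these totals. From bulk libraries alone, fewer cells of a type and less RNA per cell cannot be told apart.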

How the data were processed

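The authors sequenced 75-base paired-end reads, trimmed them with Trimmomatic 0.39, mapped them with STAR 2.7.0f to GRCm38 and quantified loci with Cufflinks 2.2.1, in the submitters' notes. The deposited values are a signal, made by the authors as estimated fragment counts divided by 1 size factor per library, in one table for sorted PCs and one for TRAP. The labels give genotypes as CC and WW, read as mutant and control after the column names in the supplementary files. The supplementary files gave the locus names, 1985 of them with a transcript. Between 77.6% and 80.1% of sorted and 85.0% and 95.7% of TRAP values were whole multiples of a library's step within 0.02, so a count model was not the main test, and limma-voom on the recovered fragments was an alternative.

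Values were transformed to log2(value + 1). Testing used limma 3.58.1 in R 4.3.3, with Benjamini-Hochberg adjustment over all loci tested, on loci whose mean log2 value was 5 or more in the sorted table or 2 or more in the TRAP table. Only the groups compared entered a fit, and a call was an unadjusted p under 0.01 with a fold above 2, after the study's methods. The fits were tested on simulated data. The planned test of the 2 loci in sorted PCs could not be made, since both were at 0. The members, lists and alternatives were chosen with earlier results of these data known. Text names the 2 loci, the extremes of the 24 other 5S loci, the paired genes of 4 lists (RNA polymerase III, 5S partners, ribosomal proteins, small RNAs) and the 5 loci most like the 2 in pattern, and other names were chosen after their values were seen. Fold changes on this scale understate those of low loci. All TRAP libraries carry 1 submission number. The methods describe collection animal by animal, and sorted libraries 144a and 144b share an animal number. Intervals of counts cover counting error only. Coordinates and the search of read-length windows used the GENCODE annotation and transcripts of GRCm38. The base sequences of the loci are not reported here.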

Additional observations from a re-analysis of the deposited data

Results flagged for a closer look

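In the sorted groups of 5 libraries, 16 groups of values (the 2 loci and 6 list genes in each genotype) were examined for a library far from the others, of which chance flags about 1 in 20. The value of n-R5s211 in sorted control 144b, 0.93 from 1 fragment, stood beside 4 controls at 0, where any single fragment would be picked out, and lies within the 3 fragments that a count of 0 allows. Polr3k in sorted mutant 74, at 0.0138, was far below the other mutants, in which its highest value was 90.9.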

How the results depend on the processing

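The difference of n-R5s210 between genotypes under rapamycin stayed below 0 in all 18 alternatives and kept its side of the call rule in 16. It passed the call rule with an intensity trend in eBayes (−1.53) and with limma-voom (−1.71). That of n-R5s211 stayed below 0 and without a call in all 18. Changes of the filter, an eBayes trend, all TRAP groups in one fit or a replicate block leave a difference itself unchanged. Its sign was therefore fixed in those settings. With 1 library left out in turn, the first ranged from −2.04 (without mutant 2) to −1.14 (without mutant 1) and the second from −1.68 (without control 1) to −0.59 (without control 2). The untreated differences, which chose the loci, moved by less than the pooled SD of both groups (0.60 for n-R5s210 and 0.43 for n-R5s211) in all 18 alternatives. Those 18 include the settings that leave a difference unchanged. Over left-out libraries the untreated differences ranged from −2.35 to −1.57 for n-R5s210 and from −2.45 to −1.97 for n-R5s211. No call was made among the 6 partner, polymerase and ribosomal protein genes in sorted PCs under any of 22 alternatives, submission as a term included (limma, unadjusted p under 0.05 in 1 gene as reported).

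Same-numbered TRAP libraries did not deviate together (correlations of −0.04 to 0.05), so the numbers were not read as pairs. With a replicate block, the differences under rapamycin were −1.53 (p 0.0741) and −1.10 (p 0.182) in limma, 64 loci passed the call rule in place of 107, and 202 in place of 189 without rapamycin.

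Of the 24 other 5S loci, 0 were called lower under rapamycin as reported, and at most 5 with all 4 TRAP groups in one fit, and 3 had an unadjusted p under 0.05 with a replicate block in place of 6. The number of all loci called under rapamycin, 107, was 55 with a pseudocount of 0.1, 535 with no filter, 32 with a stricter filter, 69 with limma-voom, 306 with all TRAP groups in one fit and 306 without control 1 at equal library totals. It was 36 to 430 with a library left out. The 189 calls without rapamycin became 78 with equal library totals, 441 with no filter, 65 with all groups in one fit, and 98 to 354 with a library left out. The 242 calls in sorted PCs became 702 with no filter, 33 with submission as a term and 100 within submission MS3005, and 104 to 530 with a library left out. The causes of these moves were not tested. In the sorted libraries a count of 0 allows up to 3 fragments per locus, and 3 libraries a group limit TRAP.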

Other observations

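Of the other small RNAs, Rny3 and Rnu12 were also described by their values in TRAP with rapamycin. Rny3, a Y RNA bound by the Ro60 protein, was at 161, 5980 and 5163 in controls with rapamycin and at 554 to 1891 in mutants with rapamycin. Rnu12, an RNA of the minor spliceosome, was at 200 to 1642 and 196 to 437, and had a Pearson correlation of 0.934 with the mean log2 value of n-R5s210 and n-R5s211 over the 12 TRAP libraries. Outside the small RNAs, the long non-coding host gene Dancr had a correlation of 0.912. Rny3, Rnu12 and Dancr were picked for this description after the values were seen, and no correlation is given for Rny3.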
